A study of Rattus norvegicus and Mus musculus with 24 samples.

Results

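Galanin (GAL) was followed in kidney RNA from animals that lack the lysosomal cystine transporter encoded by Ctns and from their wild-type controls. It is 1 of 14931 symbols measured in rats and 1 of 17376 measured in mice, and it was chosen by its own rat values, namely reads in every Ctns WT rat and almost none in any Ctns KO rat. Its rat genotype contrast is therefore given as a description, with no test. Tests are kept for other contrasts, which are WT rats of one number range against the other, mice of both genotypes, and other genes in the same animals. They are not independent of the choice. The WT rat values were part of it, and GAL and the lists were chosen with earlier results of these data known.

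RNA sequencing covered 8 Ctns KO and 8 Ctns WT rats of the Sprague-Dawley background and 4 Ctns KO and 4 Ctns WT mice of the C57BL/6 background, each knockout compared with control littermates. Cells without cystinosin, the product of Ctns, store cystine in their lysosomes. The age of the sequenced rats and mice is not given in the sources used here. The labels state kidney cortex, proximal tubule cells and microdissected proximal tubules, no treatment and no batch. They number the rats 17 to 24 and 25 to 32, with 4 KO and 4 WT rats in each range, without saying what the ranges stand for. The methods name kidney cortex as the source of RNA and count animals per group, so each library is taken as 1 animal.

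Libraries held 24684097 to 40629873 reads in rats and 19309449 to 44449859 in mice. Reads of CTNS were 16.4 ± 0.663 CPM (reads per 1000000 reads assigned to genes) in KO mice and 43.1 ± 3.58 CPM in WT mice (SD, n = 4 each), and the groups did not overlap. In rats they were 19.8 ± 2.198 and 21.6 ± 2.49 CPM (SD, n = 8 each) and overlapped (CTNS log2 fold change -0.22, adjusted p = 0.0511, edgeR), so the transcript does not check the rats' genotype labels. KO mouse 3 had 49 reads of XIST where the other mice had 17581 to 42003, and the mouse results were also computed without it. The Y-linked genes DDX3Y, KDM5D, UTY and USP9Y had 0 reads in every mouse, KO mouse 3 included. Per the paper, the mice in its experiments were female. Defining markers of the proximal tubule were abundant in all rats, and those of other kidney segments, glomeruli and immune cells were present too.

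Galanin is a neuropeptide cut from a larger precursor and stored in dense-core granules of neurons and endocrine cells. It signals through G protein-coupled receptors (GALR1, GALR2 and GALR3), which it shares in part with galanin-like peptide (GALP) and spexin (SPX). Its gene is switched on after nerve injury by cytokines of the LIF family acting through STAT3, in the pituitary by estrogen, and in several cell types by cyclic AMP and AP-1 factors. In the kidney it is better known from nerve fibres than from tubule cells.

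Rat Gal lies on chromosome 1 and Ctns on chromosome 10. The 250 bases just before the start of Gal are shown because the regulators described further on act on sequences of this kind. They come from RefSeq, build GRCr8, chr1:210084573-210084822, minus strand, written 5′ to 3′ with matches to the motifs searched in capitals.

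Gal: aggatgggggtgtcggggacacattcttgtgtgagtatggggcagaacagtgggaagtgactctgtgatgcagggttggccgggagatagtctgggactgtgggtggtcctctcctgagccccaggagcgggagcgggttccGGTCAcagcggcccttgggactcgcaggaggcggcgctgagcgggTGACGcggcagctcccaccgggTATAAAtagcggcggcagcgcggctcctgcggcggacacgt

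The capitals mark, in order, an estrogen response half-site (GGTCA, first base 108 before the start), the core of a cyclic AMP response element (TGACG, first base 63 before the start) and a TATA box (TATAAA, first base 41 before the start). GGTCA, searched on both strands, occurs in 35.4% of the 33469 rat promoters of this length, TGACG on both strands in 18.2%, and TATAAA on the gene's strand in 8.05%. The AP-1 motif TGANTCA and the STAT motif TTCNNNGAA, searched on both strands, have no match in this window and occur in 6.34% and 7.67% of promoters. The window is 66% G and C, against a median of 51.2% over all promoters. These are letters in a window and say nothing about binding.

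GAL was present in all WT rats and near-absent in all KO rats. WT rats 17, 19, 21 and 23 had 199, 195, 269 and 226 reads, and WT rats 25, 27, 29 and 31 had 428, 518, 432 and 630. KO rats 18, 20, 22 and 24 had 1, 1, 1 and 0 reads, and KO rats 26, 28, 30 and 32 had 2, 0, 2 and 2. The genotypes did not overlap, and the WT rat with the fewest reads had 195 against 2 in the KO rats with the most. Every one of these entries was a whole read, and no other symbol had the same reads as GAL in every rat.

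In CPM, WT rats ran from 6.09 over a median of 10.5 to 20.8, with a mean of 11.6 ± 5.12 (SD, n = 8). The 8 KO rats together had 9 reads of GAL among 232639609, which is 0.0387 CPM with a 95% exact Poisson interval of 0.0177 to 0.0734. This is 0.333% of the WT mean (interval 0.152 to 0.632%), or 300.2-fold lower (interval 158.1 to 656.4). Such intervals cover counting error only. The level was 0.345% of WT in rats 17 to 24 (interval 0.0712 to 1.01%) and 0.330% in rats 25 to 32 (interval 0.121 to 0.719%), and these intervals overlap. In 2 of the 8 KO rats no read was found, and all KO rats were at or under 3 reads, the limit that a count of 0 allows. In tissue RNA, fewer cells that make GAL and less GAL RNA per cell cannot be told apart.

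**Figure D1:**
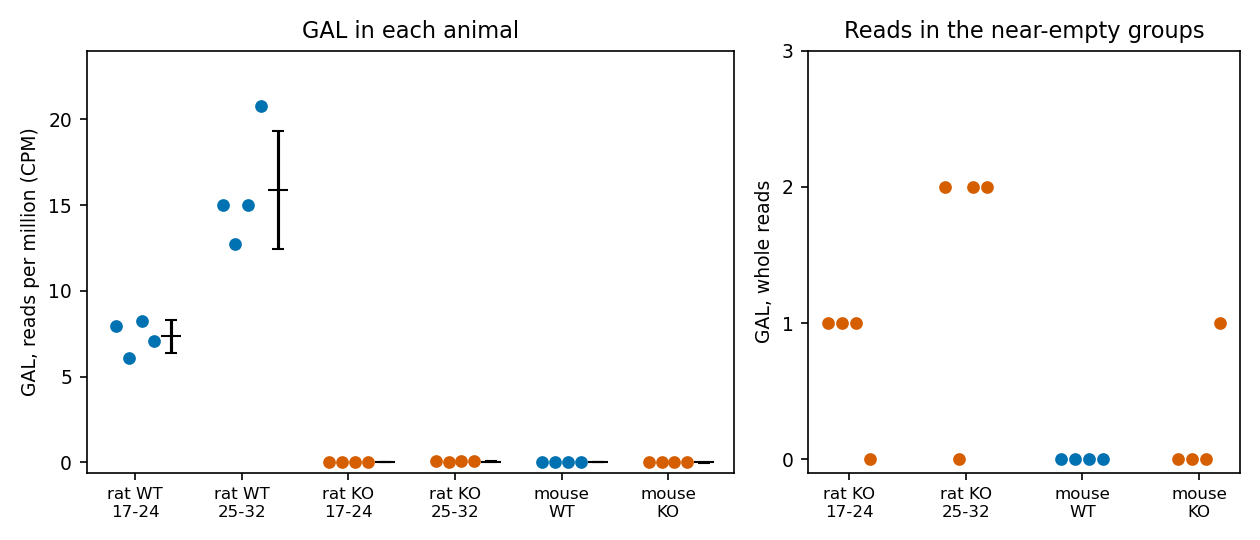
GAL in each animal, with CPM on a linear axis for all groups (left) and whole reads for the near-empty groups (right). Points are animals, in order of their number, and black bars are the mean ± SD of 4 animals. WT rats lie at 6.09 to 20.8 CPM, KO rats at no more than 0.0810 CPM, and mice of both genotypes at 0 or 1 read.

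No other symbol in the rat table had this pattern. Of 14931 symbols, 1 (GAL) had at most 3 reads in every KO rat and at least 50 in every WT rat, and 0 had the reverse. By the gap between the genotypes, the nearest to it was STK32C, a serine/threonine kinase, with at least 24 reads in every WT rat and at most 12 in every KO rat, or 0.960 CPM in the lowest WT rat and 0.388 CPM in the highest KO rat. For GAL the corresponding values were 6.09 and 0.0810 CPM. SULT1C2, a sulfotransferase, followed with 177.7 and 131.7 CPM, and for SLC6A13, a GABA and taurine transporter, they were 67.9 and 53.9 CPM. Among the 11584 symbols that passed the filter on low counts, 110 had a lowest WT rat above the highest KO rat, and for 2 of them the gap was at least 2-fold. In the other direction, 604 symbols had all KO rats above all WT rats, 48 of them by at least 2-fold. For these gaps, values under 0.122 CPM, the level of 3 reads in the smallest rat library, were set to it, and for GAL the gap was then at least 50.1-fold. GALNT13, a glycosyltransferase, had 0.898 CPM in the lowest KO rat and 0.0943 CPM in the highest WT rat, a gap of at least 7.39-fold. IL24, a cytokine, had at least 13 reads in every KO rat and 0 in every WT rat, a gap of at least 3.43-fold. With that floor a 10-fold gap was reached by GAL alone among symbols lower in KO rats and by 0 symbols higher in them, and gaps that start at 0 reads could be larger than this depth shows. These counts describe the rats in which GAL was chosen and have no test.

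**Figure D2:**
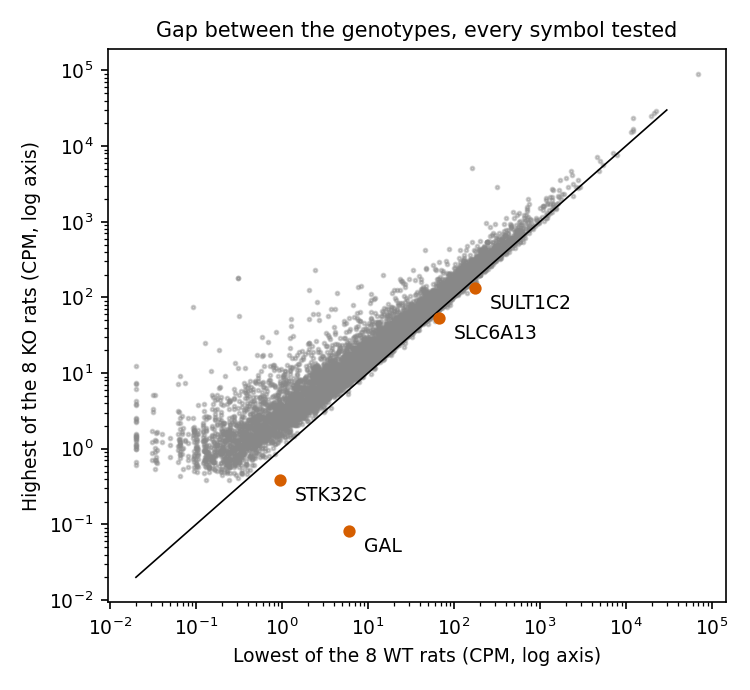
Lowest value among 8 WT rats (x) against highest value among 8 KO rats (y), in CPM on log axes, for the 11584 symbols tested. The line marks equal values, values of 0 are drawn at the left edge of the cloud, and 4 symbols are marked in orange. Points under the line have every WT rat above every KO rat, and GAL lies farthest below it.

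Within the WT rats, GAL was higher in numbers 25 to 32 than in 17 to 24. The means were 15.9 ± 3.43 and 7.35 ± 0.975 CPM (SD, n = 4 each), and the lowest rat of the first group, at 12.7 CPM, was above the highest of the other, at 8.26 CPM. The log2 fold change was 1.22 (standard error, SE, 0.17; adjusted p = 0.000935, quasi-likelihood test in edgeR, adjusted over all symbols by Benjamini-Hochberg). An exact two-sided permutation test of the GAL values alone gave p = 0.0286, the smallest that 4 against 4 allows. Between these groups of WT rats 18.3% of 11504 symbols were called, and 257 had a smaller p than GAL. The direction held in all 4 rats of each range. Counting error was small beside it, with the coefficient of variation between rats at 13.3% in 17 to 24 and 21.6% in 25 to 32 against 6.71% and 4.46% from counting alone.

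Markers of several cell types differed between the same WT rats. Of 10 proximal tubule genes tested, 6 were higher in rats 25 to 32 and 1 was lower, where 8.79% of all symbols were higher. The organic anion transporter SLC22A6 was 1860 ± 176.5 against 920.1 ± 184.5 CPM (SD, n = 4 each, log2 fold change 1.12, adjusted p = 0.000425, edgeR). The water channel AQP1 was 1950 ± 92.8 against 1410 ± 151.2 CPM (log2 fold change 0.57, adjusted p = 0.00184, edgeR). The exception was the endocytic receptor CUBN, at 508.1 ± 71.2 against 1040 ± 170.3 CPM (log2 fold change -0.93, adjusted p = 0.000890, edgeR). Markers of later tubule segments were lower for 7 of 10 and those of podocytes and endothelium for 7 of 11, where 9.54% of all symbols were lower. Immune cell markers were higher for 5 of 11. The summed level of the 10 proximal tubule genes was 25525 to 30275 CPM in WT rats 17 to 24 and 33807 to 38320 CPM in WT rats 25 to 32. Their part in the GAL difference was not tested.

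ESR1, the estrogen receptor whose ligand is known to induce galanin in the pituitary, had the same order among WT rats. It was 17.3 ± 5.25 CPM in rats 25 to 32 and 6.32 ± 0.550 CPM in rats 17 to 24 (SD, n = 4 each, log2 fold change 1.56, adjusted p = 0.000275, edgeR). The ranges of 12.8 to 24.2 and 5.53 to 6.74 CPM did not overlap. Within rats 25 to 32 the WT rat with the most ESR1 (24.2 CPM, rat 27) had the least GAL (12.7 CPM) and the one with the most GAL (20.8 CPM, rat 31) had the least ESR1 (12.8 CPM). In KO rats ESR1 ran from 5.11 to 9.21 CPM, which overlaps WT rats 17 to 24. The part of ESR1 in the GAL values was not tested. The other 16 regulators tested, listed in the next comparison, did not pass the threshold between the ranges. The sex of the rats could not be read from the data, because none of the 10 sex-linked symbols looked for was among the rat symbols analysed here.

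**Figure D3:**
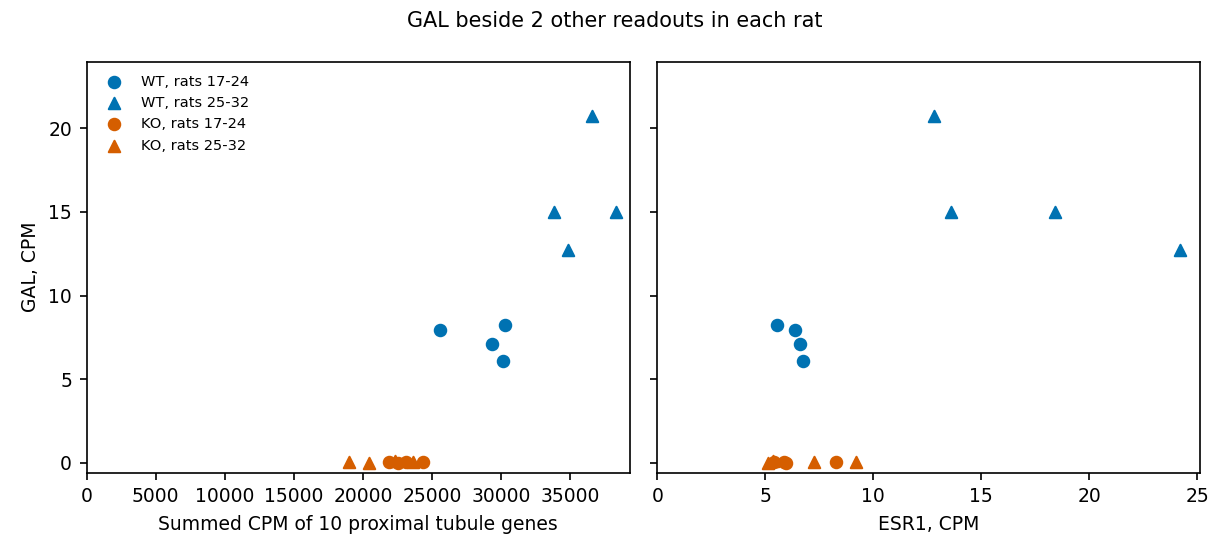
GAL in each of 16 rats (y, CPM) against the summed CPM of 10 proximal tubule genes (left) and against ESR1 in CPM (right). Colours give the genotype and shapes the number range. WT rats 25 to 32 are highest on all axes, KO rats of both ranges overlap at the floor of GAL, and KO rats (5.11 to 9.21 CPM) and WT rats 17 to 24 overlap on ESR1.

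Mouse kidney held almost no GAL in either genotype. A single read was found in KO mouse 8, and the other 3 KO mice and all 4 WT mice had 0 reads. A count of 0 allows up to 0.0675 to 0.155 CPM, depending on the library. The mouse gene, on chr19:3409915-3414544 of build mm10, minus strand, was so read at levels far from the 11.6 CPM of WT rats, although these levels come from tables that were processed separately. In the whole-table limma fit the log2 fold change was 0.00024 on the log2(value + 1) scale (adjusted p = 0.764), where 4.32% of 17376 symbols were called. With 0 reads in WT mice, a loss like that in rats could not be measured at this depth.

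Receptors and the other ligands of the system were at the floor in rats. The related ligand GALP had 0 to 2 reads per rat, and the receptors GALR1 and GALR3 had 0 to 2 and 0 to 3. These genes overlapped fully between genotypes and did not pass the filter on low counts, so 0 of 3 were tested. GALR2 and SPX were not analysed here in rats. In mice GALR2 was the most abundant member, with 20 to 45 reads in KO and 22 to 63 in WT mice (log2 fold change -0.17, SE 0.21, adjusted p = 0.713, edgeR on recovered reads). SPX had 5 to 14 and 3 to 9 reads (adjusted p = 0.381, limma), and GALP and GALR1 had 0 in every mouse. GALR3 was not analysed here in mice. Of the 4 members tested by limma in mice 0 were called, and 0 had an unadjusted p under 0.05. GALR2 was the 1 member that passed the edgeR and DESeq2 filter and was not called by either.

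Most of the tested regulators of galanin transcription were higher in KO rats, and their part in the GAL values was not tested. Of 21 genes on this list 18 were tested, 11 rose and 1 fell, where 27.5% of 11584 symbols were called, 15.2% higher and 12.3% lower. Their median log2 fold change was 0.38, against -0.02 over all symbols. The AP-1 member FOSB had 0 to 0.346 CPM in WT rats (median 0.129) and 0.289 to 2.26 CPM in KO rats (median 0.885), with a small overlap. Only 1 WT rat and 7 KO rats reached the 0.330 CPM that the filter asks for, so FOSB entered the test through the group where it was high. In a fit without the filter it had a log2 fold change of 2.67 (adjusted p = 0.000576, edgeR), and 10 of 18 regulators were higher and 1 lower, where 23.9% of 13854 symbols were called. The stress-induced factor ATF3 was 1.996 to 4.75 CPM in WT rats (median 3.01) and 6.51 to 24.1 CPM in KO rats (median 14.0), with no overlap (log2 fold change 2.26, SE 0.28, adjusted p = 2.93e-05, edgeR).

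LIF, the cytokine that induces galanin in injured neurons, was 0.120 to 0.363 CPM in WT rats (median 0.332) and 0.616 to 2.18 CPM in KO rats (median 1.16), with no overlap. It reached the 0.330 CPM that the filter asks for in 8 KO and 4 WT rats, so it passed the filter through the KO rats. In the fit without the filter LIF had a log2 fold change of 1.915 (adjusted p = 0.000119, edgeR). STAT3, which acts downstream of LIF, rose by less, with a log2 fold change of 0.49 (adjusted p = 4.83e-05, edgeR). SOCS3, a target and inhibitor of STAT3 signalling, had a log2 fold change of 1.79 (adjusted p = 0.000198), FOS 1.85 (adjusted p = 3.27e-05) and EGR1 1.12 (adjusted p = 7.99e-06, all edgeR). The cyclic AMP response factors CREB1 and CREM had -0.06 and 0.05 and did not pass the threshold. The single regulator that fell was ESR1, at -0.96 (adjusted p = 0.0241, edgeR). ESR1 had 0.0016 in rats 17 to 24 and -1.51 in rats 25 to 32, and these changes differed (adjusted p = 0.00309, edgeR interaction). STAT3, SOCS3, FOS, EGR1, CREB1, CREM and ESR1 are named outside the naming rule, after their values were seen.

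In rats 17 to 24 alone 6 of 18 regulators were called, all higher (7.26% of all symbols called), and in rats 25 to 32 alone 10 were higher and 2 lower (43.8% of all symbols called). ATF3 was past the threshold in both ranges, with log2 fold changes of 1.42 and 2.80 (adjusted p = 0.00263 and 1.07e-06, edgeR). In mice, where almost no GAL was read, 5 of 21 were called, all higher, where 3.5% of all symbols were higher. LIF had 65 to 157 reads in KO mice and 9 to 29 in WT mice (log2 fold change 2.76, SE 0.24, adjusted p = 1.4e-05, edgeR on recovered reads; adjusted p = 0.00233, limma). SOCS3 and the AP-1 members JUN and JUND were also higher in KO mice (adjusted p = 0.00894, 0.0178 and 0.00852, limma).

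Of 11 tested genes of the machinery that cuts and stores peptides 2 rose and 2 fell, with a median log2 fold change of 0.18. This is 4 called of 11 where 27.5% of all symbols were called, too near that share to be read as a result about the list. The prohormone convertase PCSK2 was 0.0800 to 0.455 CPM in WT rats and 0.385 to 1.59 CPM in KO rats. It passed the filter through the KO rats, since 2 WT rats reached 0.330 CPM, and had a log2 fold change of 1.45 without the filter (adjusted p = 0.00557, edgeR). PTPRN2, a membrane protein of dense-core granules, had a log2 fold change of 0.64 (adjusted p = 0.0147). The granule protein SCG2 was 1.63 to 3.24 CPM in WT and 0.870 to 2.26 CPM in KO rats (log2 fold change -0.58, adjusted p = 0.0179, edgeR). In mice 2 of 20 were called (4.32% of all symbols), both higher, namely CPE, a carboxypeptidase that trims peptide precursors, and SYT1, a calcium sensor of vesicle fusion.

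Most other peptide genes had few or no reads in rat kidney. Of 46 in the table, 33 had fewer than 10 reads in every rat, and 8 averaged at least 1 CPM in WT rats. Of the 12 tested 2 rose and 1 fell, a share near the 27.5% over all symbols, with a median log2 fold change of 0.02. Without the filter 5 of 36 rose and 1 fell, where 23.9% of all symbols were called. INSL3, a relaxin family peptide, was 13.6 to 19.2 CPM in WT rats and 20.6 to 37.9 CPM in KO rats, with no overlap (log2 fold change 0.72, adjusted p = 0.000198, edgeR). EDN1, the vasoconstrictor endothelin, rose by 0.68 (adjusted p = 0.0214), and ADM2, a vasodilator of the adrenomedullin family, fell by 0.55 on the log2 scale (adjusted p = 0.00154, both edgeR). In mice EDN1 and STC2, a secreted glycoprotein hormone, were higher by limma (2 of 46 called, near the 4.32% over all symbols). EDN1 was close to the threshold (adjusted p = 0.0488, limma) and was not called by edgeR on recovered reads (adjusted p = 0.118). STC2 was called by edgeR too (adjusted p = 3.1e-06).

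Markers of nerve and adrenal tissue, which are known sources of galanin, were compared between the genotypes. The enzymes that define catecholamine cells, TH, DBH and PNMT, had 0 reads in every WT rat and at most 2, 5 and 2 in any KO rat, and PHOX2A had 0 in all rats. On the nerve and glia list 10 of 19 genes had at most 10 reads in every rat. Of the 7 tested 2 rose and 1 fell, where 27.5% of all symbols were called. NGFR, the low-affinity neurotrophin receptor, rose, with 0.596 to 0.9999 CPM in WT rats and 1.96 to 6.52 CPM in KO rats (log2 fold change 2.05, adjusted p = 9.31e-06, edgeR). UCHL1, a deubiquitinase abundant in neurons, rose by 1.17 (adjusted p = 0.00139), and DDC, which tubule cells also make, fell by 0.58 on the log2 scale (adjusted p = 0.0138). Without the filter 4 of 18 rose and 1 fell, where 23.9% of all symbols were called. TUBB3, on the same list, did not pass the filter over all rats, with 0 to 8 reads in WT and 5 to 75 in KO rats. It is named after its values were seen. The summed level of the list was 249.2 to 320.6 CPM in WT and 147.5 to 271.7 CPM in KO rats, most of it DDC. Of 3 adrenal genes tested 0 were called by edgeR, DESeq2 or voom and 0 had an unadjusted p under 0.05, and the summed level of that list was 7.33 to 16.1 CPM in WT and 2.54 to 19.8 CPM in KO rats. CYP11A1 had 178 to 418 reads in WT and 10 to 555 in KO rats. In rats 25 to 32 alone it was higher in KO rats (log2 fold change 0.90, adjusted p = 0.00230, edgeR), where 43.8% of all symbols were called. In rats 17 to 24 alone 0 of 3 were called. CYP11A1 is named after its values were seen. Without the filter edgeR called 1 of 12, the steroidogenic factor NR5A1, which is named after its values were seen. In mice 2 of 21 nerve genes were higher (NEFM and S100B) and 0 of 9 adrenal genes were called by limma (4.32% of all symbols), 0 at an unadjusted p under 0.05 and 0 by edgeR or DESeq2. S100B had 6 to 10 reads in KO and 0 to 4 in WT mice (adjusted p = 0.0434, limma) and did not pass the edgeR filter.

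Markers of several kidney cell types changed in the same rats. Of 10 proximal tubule genes 8 fell and 0 rose, where 12.3% of all symbols were lower and 15.2% higher. Their median log2 fold change was -0.60. PCK1, the gluconeogenic enzyme, had a median of 5828 CPM in WT and 2778 CPM in KO rats (log2 fold change -1.04, adjusted p = 0.00187, edgeR), with rats of both genotypes overlapping. AQP1 was 1238 to 2023 CPM in WT and 1048 to 1221 CPM in KO rats, with no overlap (log2 fold change -0.67, adjusted p = 0.000702, edgeR). SLC22A6 had -0.75 (adjusted p = 0.0169, edgeR), and in rats 17 to 24 alone -0.15 (adjusted p = 0.590). The summed level of the 10 genes was 25525 to 38320 CPM in WT and 18992 to 24345 CPM in KO rats. The groups did not overlap, and the part of this shift in the GAL values was not tested.

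Among immune cell markers 10 of 11 rose, where 15.2% of all symbols were higher. They were led by the T cell genes CD3D (log2 fold change 1.80) and CD3E (1.69) and the macrophage receptor MRC1 (1.67). Their adjusted p were 0.000920, 0.00312 and 7.41e-05 (edgeR). CD3D reached the filter level of 0.330 CPM in 8 KO and 6 WT rats and had 1.79 without the filter (adjusted p = 0.000940, edgeR). Without the filter 11 of 15 immune markers rose, where 23.9% of all symbols were called. Of 9 fibroblast and smooth muscle genes 6 rose, with DCN at 1.66, LUM at 1.17 and COL3A1 at 0.89, all of them matrix genes. LUM reached the filter level in 8 KO and 4 WT rats and had 1.16 without the filter (adjusted p = 0.00317, edgeR). Of 10 genes of later tubule segments 2 rose, near the 15.2% over all symbols. They were CALB1 at 0.36 and UMOD at 0.31 (edgeR adjusted p = 0.0257 and 0.0449), and UMOD had -0.01 in rats 17 to 24. UMOD lost the call without the filter (adjusted p = 0.0516) and on leaving out any 1 of KO rats 26, 28, 30 and 32 or WT rats 19, 25, 27, 29 and 31 (adjusted p up to 0.0945, edgeR). Of 11 podocyte and endothelial genes 0 were called by edgeR, where 27.5% of all symbols were called. Of these genes 1 had an unadjusted p under 0.05, and DESeq2 and voom called 1 each. With the number range as a covariate edgeR called 4 of them (share of all symbols not given here). In rats 17 to 24 alone it called 1 and in rats 25 to 32 alone 3, all lower, where 7.26% and 43.8% of all symbols were called. In mice the limma fit, which called 4.32% of all symbols, called 0 of 12 proximal tubule, 1 of 17 later tubule (SLC26A4), 0 of 12 podocyte and endothelial, 3 of 15 immune (ADGRE1, TYROBP and CD68), 4 of 11 fibroblast (COL3A1, COL1A2 and COL1A1 leading) and 0 of 5 sex-linked genes. At an unadjusted p under 0.05 the counts of 0 became 2, 2 and 0, edgeR on reads called 1, 2 and 0, and DESeq2 3, 2 and 0, in that order for proximal tubule, podocyte and endothelial, and sex-linked genes.

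**Figure D4:**
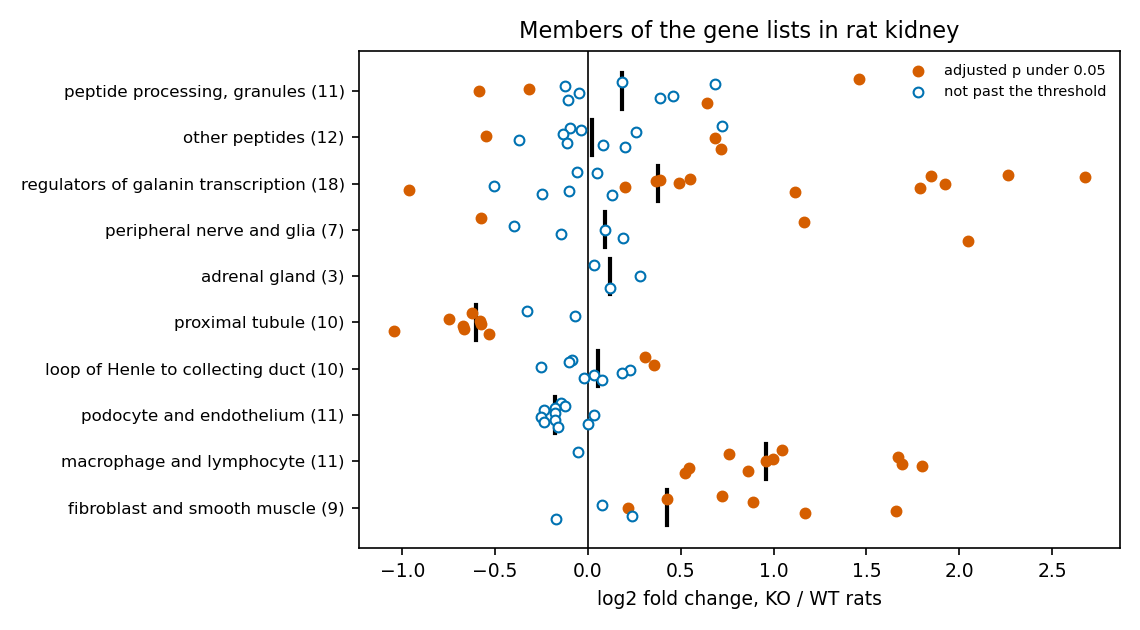
Log2 fold change between KO and WT rats for each tested member of the 10 lists, with the number tested in parentheses. Orange points passed an adjusted p of 0.05 (edgeR), open points did not, and black bars are list medians. Proximal tubule genes lie left of 0 with a median of -0.60, and most regulators of galanin lie to the right with a median of 0.38.

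Genes were then ordered by their likeness to GAL across the 16 rats. Likeness was Pearson's r on log2(CPM + 0.1) over 10827 symbols averaging at least 1 CPM, given as a description, since the rats form clusters by genotype and number range. Among the 10 highest were MDH1 (0.946), SLC6A13 (0.945), PTER (0.945), LDHD (0.942), STK32C (0.939), HOGA1 (0.938), XYLB (0.933), PEX10 (0.923) and HACL1 (0.912). MDH1 is a malate dehydrogenase, LDHD a D-lactate dehydrogenase, HOGA1 an enzyme of hydroxyproline breakdown, and XYLB a xylulose kinase. PEX10 and HACL1 belong to peroxisomes.

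Their differences between genotypes were far smaller than that of GAL. SLC6A13 was 85.4 ± 15.0 CPM in WT and 49.1 ± 3.82 CPM in KO rats, and STK32C was 1.95 ± 0.791 and 0.340 ± 0.0511 CPM (SD, n = 8 each). Log2 fold changes of the 10 ran from -2.61 to -0.29. Over the 8 WT rats alone r with GAL ran from 0.159 (PEX10) to 0.949 (SLC6A13). The 3 lowest were CENPF (-0.970), a kinetochore protein of dividing cells, CDHR1 (-0.967) and TMEM119 (-0.964), all higher in KO rats. CENPF was 1.95 ± 0.447 CPM in WT and 12.6 ± 3.03 CPM in KO rats.

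The genes tested next to GAL on its chromosome were read in all rats of both genotypes. Of the 5 measured protein-coding genes on each side, in the order of the RefSeq annotation, 8 of 10 were tested, 1 rose and 1 fell, a share near the 27.5% over all symbols, and their log2 fold changes lay between -0.32 and 0.44 with a median of -0.05. On one side the nearest measured gene, TESMIN, a testis gene, was near the floor, with 24 reads over all KO and 27 over all WT rats. The next, CPT1A, which brings fatty acids into mitochondria, was 278.7 ± 31.4 CPM in KO and 284.0 ± 56.0 CPM in WT rats (SD, n = 8 each, log2 fold change -0.13, adjusted p = 0.463, edgeR). On the other side PPP6R3, a phosphatase subunit, was the nearest and fell from 243.0 ± 10.96 to 207.6 ± 16.05 CPM (log2 fold change -0.32, SE 0.05, adjusted p = 0.000388, edgeR). TCIRG1, a subunit of the proton pump that acidifies lysosomes and the fifth on that side, rose by 0.44 (adjusted p = 0.00236, edgeR). MRGPRD had 0 reads in all rats, and the other 5 tested, among them IGHMBP2, MRPL21, KMT5B and CHKA, lay between -0.15 and 0.08 and did not pass the threshold.

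In rats 17 to 24 alone edgeR called 0 of 8 neighbours (2 at an unadjusted p under 0.05), and in rats 25 to 32 alone 4 of 8, where 7.26% and 43.8% of all symbols were called. With 10 genes on each side 6 of 17 were called in all rats, 4 higher and 2 lower, where 27.5% of all symbols were called. In mice limma called 0 of 9 measured neighbours and 4.32% of all symbols, and 2 neighbours had an unadjusted p under 0.05. On reads edgeR and DESeq2 called 1 each of 7, where edgeR called 8.91% of all symbols.

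**Figure D5:**
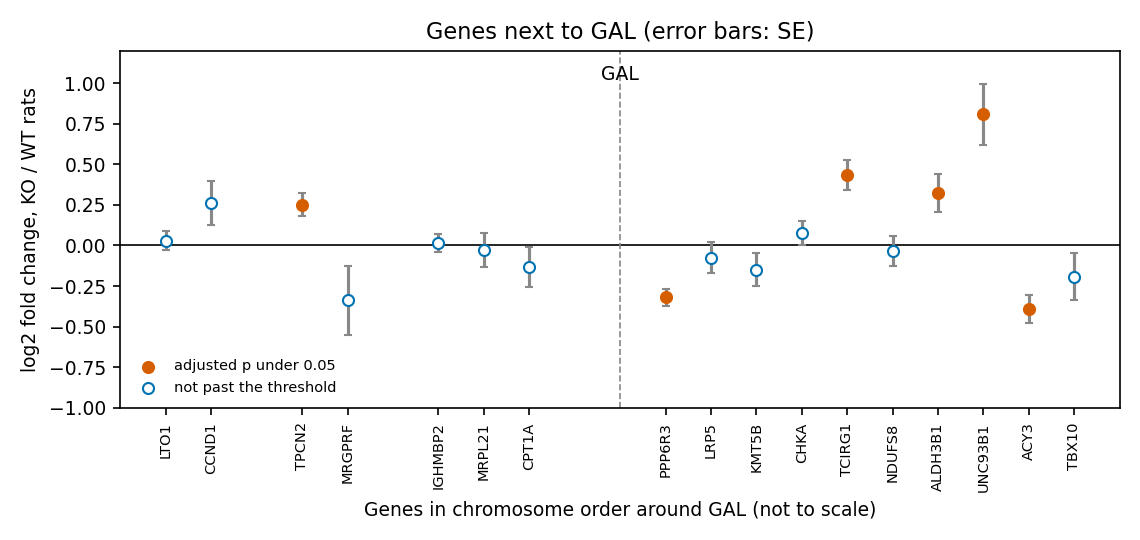
Log2 fold change between KO and WT rats (y) for the tested genes among the 10 on each side of GAL, in chromosome order and not to scale. Error bars are standard errors, orange points passed an adjusted p of 0.05 (edgeR), and GAL is left out. All neighbours lie between -0.39 and 0.81, on both sides of 0.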

How the data were processed

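Polyadenylated RNA libraries (TruSeq Stranded mRNA) were made by the authors. Per the labels, the submitters' processing notes name bcl2fastq 2.20, STAR 2.7.3, DESeq2 1.24.0 and R 3.6.1 and builds rn5 and mm10. The deposited rat values are estimated counts, here whole reads plus 1/6, so the offset was taken off and values were rounded (97.7% of entries whole within 0.01). The deposited mouse values are a normalised signal, gene reads plus 0.5 divided by a factor per library, from which whole reads were recovered (99% of entries).

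Rat reads were tested with edgeR 4.0.16 (quasi-likelihood, TMM, filterByExpr), mouse values with limma 3.58.1 on log2(value + 1) without a filter, and edgeR on the 13442 mouse symbols passing its filter as an alternative, in R 4.3.3. On the log2(value + 1) scale changes of low genes are understated. DESeq2 1.42.0 and limma-voom were alternatives. P-values were adjusted over all symbols. On simulated 2-fold changes edgeR recovered 100% of 200 genes in 8 against 8 rats and 97.5% in 4 against 4, and limma 93.5% in mice. The changes were placed only in well-read genes, with the same dispersion for every gene of a species. In 8 against 8 rats no difference between number ranges was simulated. These shares therefore do not apply to genes with few reads. GAL and the lists were chosen with earlier results of these data known. Named were, in each list, up to 3 called genes with the largest change, 5 neighbours on each side, and the genes most and least like GAL; 1 of the most like is not reported here. Libraries of one group differed by more than sampling noise. Replicate numbers are not shared between genotypes.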

Additional observations from a re-analysis of the deposited data

Results flagged for a closer look

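Of 37 groups of 4 or 8 animals checked for a sample far from the rest, 2 had one, about what chance gives at 1 in 20. STK32C was 0.231 CPM in KO rat 30 and 0.318 to 0.388 CPM in the other KO rats. TESMIN was 0.353 CPM in KO rat 28 and at most 0.122 CPM in the other KO rats. No GAL value stood apart in its group.

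For 36 named genes the change with genotype in rats 25 to 32 was compared with that in rats 17 to 24 (edgeR interaction), and 12 differed. On the log2 scale the first minus the second was 1.38 for ATF3 (adjusted p = 0.00537), 1.47 for SOCS3 (0.0136) and -1.51 for ESR1 (0.00309) among regulators of galanin. Among peptide genes it was 0.55 for INSL3 (0.01) and -0.42 for ADM2 (0.0459). In tubule genes it was -0.96 for SLC22A6 (0.00373), -0.63 for AQP1 (0.00412) and 0.65 for UMOD (0.00790). DDC had -0.78 (0.00250) and the matrix gene DCN 1.07 (0.0179). Of the neighbours of GAL, PPP6R3 had -0.26 (0.0321) and TCIRG1 0.44 (0.0401). The ranges have no meaning in the labels, and what they stand for was not tested.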

How the results depend on the processing

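The level of GAL in KO rats was 0.290 to 0.385% of WT with each rat left out in turn and 0.304 to 0.345% under TMM, DESeq2 size factors or 1 number range alone. Among WT rats the GAL log2 fold change was 1.04 to 1.33 with a rat left out and 1.19 to 1.23 with other tools, scalings or no filter, with adjusted p from 4.06e-10 to 0.00351. In mice it was not called in the 10 alternatives that gave a value, including edgeR without a filter, chosen after seeing the data (adjusted p = 0.619). The median filter and the filtered edgeR and DESeq2 fits drop GAL in mice.

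Over all lists 27 members were called in rats 17 to 24 alone and 64 in rats 25 to 32 alone, against 48 in all rats. The shares of all symbols called were 7.26%, 43.8% and 27.5% in that order. With a rat left out 43 to 49 list members were called. Regulators numbered 6 and 12 in these ranges and proximal tubule genes 3 and 9. Leaving out a rat gave 10 to 12 regulators and 8 to 8 proximal tubule genes. Neighbours numbered 0 in rats 17 to 24, 4 in rats 25 to 32, and 6 with 10 on each side, and 2 to 2 with a rat left out. In mice the lists had 19 called members by limma, where 4.32% of all symbols were called. They had 12 with a filter at the median value, 33 by DESeq2 on reads, and 9 to 18 with a mouse left out. The shares of all symbols called in these alternatives are not given here. Mouse regulators numbered 3 with that filter, 9 by edgeR, 9 by DESeq2, and 3 to 6 with a mouse left out. ESR1 had 0.0016 and UMOD -0.013 in rats 17 to 24, a turn of sign that is within their standard errors. EDN1, PTPRN2, PCK1 and CALB1 did not pass the threshold in rats 17 to 24 alone (adjusted p = 0.490, 0.372, 0.198 and 0.382, edgeR). Nor did DCN, LUM and FOSB (adjusted p = 0.0742, 0.111 and 0.0831, edgeR). SCG2 passed it in neither range alone (adjusted p = 0.0540 and 0.184, edgeR). Leaving out WT rat 25 or 27 put the ESR1 fall in KO rats short of the threshold (adjusted p = 0.0585 and 0.06003), as did limma-voom (0.0880). No paired analysis was possible because the genotypes share no replicate numbers. With the number range in the model as a covariate edgeR called 57 list members, 13 regulators, 9 proximal tubule genes, 4 podocyte and endothelial genes (0 without it) and 2 neighbours. The share of all symbols called by that model is not given here, so these counts are not read as results about the lists. Depth limits GAL in mice and its receptors in rats, which lie at the floor.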
